A study of Homo sapiens with 6 samples.

Results

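The genes described here are 10 early response genes: the transcription factors EGR1, EGR2 and EGR3, the nuclear receptors NR4A1, NR4A2 and NR4A3, the Krüppel-like factors KLF2, KLF4 and KLF6, and the phosphatase DUSP1. They were taken from the gene table by name, and each was found once among its 58735 genes. The study followed H9 cells, an established human embryonic stem cell line, as they formed cardiac organoids, which are small 3-dimensional heart cultures. Messenger RNA was sequenced at day 0, day 2, day 3, day 4, day 6 and day 30 of differentiation, with 1 library a day and, per the labels, 10 organoids harvested at each time point. The labels name no genotype, added agent or untreated control, so each day is compared with an earlier day of the same course. The study's stated design was to compare expression between time points.

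Early response genes are transcribed within minutes of a stimulus from factors already present in the cell, and their transcripts are short-lived. EGR genes are classic targets of ERK signalling, which acts through serum response factor (SRF) and its ternary complex partners at CArG boxes in their promoters. NR4A genes encode orphan nuclear receptors that are induced by cyclic AMP and calcium, largely through CREB at cyclic AMP response elements (CRE). KLF2 is induced by blood flow in endothelium, KLF4 is a reprogramming factor that also acts in epithelium and vessel wall, and KLF6 is broadly expressed and induced by injury. DUSP1 dephosphorylates MAP kinases and is itself an early response gene, which closes a feedback loop. These genes are also known to respond to tissue handling and dissociation.

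Levels are FPKM, read counts that the authors divided by the length of the gene and by a size for the library. Whole reads could be recovered from them, and the libraries held between 13500887 and 15526924 reads. To be called, a gene needed 1 FPKM or more in at least 1 of the compared libraries and a log2(FPKM + 1) difference of 1 or more in size. No day had a second library, so differences could not be set against replicate spread and no p-value is given. Intervals are 95% intervals from the reads and cover counting error only. All 6 libraries carry the cell type label of embryonic stem cells, but the summed level of 8 pluripotency markers was 1853 FPKM at day 0 and 5.33 FPKM at day 30, where NANOG was at 0. Summed cardiomyocyte markers were 2.5 FPKM at day 0, 366 FPKM at day 6 and 217 FPKM at day 30. The atrial light chain gene MYL7 made up 336 FPKM of the day 6 sum and 64.0 FPKM at day 30, while the median of the 8 markers was 16.6 FPKM at day 30 and 4.36 FPKM at day 6. All 8 were at 1 FPKM or more at day 30. In these bulk samples, fewer cells of a type and less RNA per cell cannot be told apart.

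The promoter sequences of 4 of the genes are shown because they hold the elements named above, before the starts of genes whose levels were called in 1 or more comparisons. Sequences are from RefSeq on GRCh38.p14, read 5′ to 3′ on the gene's strand, with CArG boxes, CRE and CRE cores in capitals. The EGR1 stretch is chr5:138465339-138465478 on the plus strand, that of EGR2 is chr10:62816367-62816506 on the minus strand, that of NR4A3 is chr9:99821765-99821854 on the plus strand, and that of DUSP1 is chr5:172771236-172771375 on the minus strand.
EGR1: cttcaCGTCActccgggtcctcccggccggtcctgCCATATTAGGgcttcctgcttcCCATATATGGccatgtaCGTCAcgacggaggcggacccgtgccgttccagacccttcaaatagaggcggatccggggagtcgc
EGR2: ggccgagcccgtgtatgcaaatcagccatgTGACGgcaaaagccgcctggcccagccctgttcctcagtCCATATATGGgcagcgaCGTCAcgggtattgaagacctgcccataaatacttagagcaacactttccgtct
NR4A3: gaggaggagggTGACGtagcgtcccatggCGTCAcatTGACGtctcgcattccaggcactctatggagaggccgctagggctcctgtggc
DUSP1: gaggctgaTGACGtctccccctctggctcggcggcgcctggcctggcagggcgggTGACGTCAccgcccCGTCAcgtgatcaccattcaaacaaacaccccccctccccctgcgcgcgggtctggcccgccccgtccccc

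EGR1 held CArG boxes 105 to 96 and 83 to 74 bases before its start, and EGR2 held 1 at 71 to 62 bases before the start shown. Each of these 2 promoters also held 2 CRE cores. NR4A3 held 3 CRE cores in the stretch shown and 1 more 25 to 21 bases before its start. DUSP1 held a full CRE 125 to 118 bases before its start, which contains 2 of its 4 CRE cores. The search of the reference table covered 11 starts of 8 of the 10 genes, in the 250 bases before each start on both strands. No start of EGR3 or NR4A2 was searched. Chromosome 8, which holds EGR3, was left out for the 10 genes but not for the shares of all promoters. CArG boxes were found in 2 of these 11 promoters and in 1.16% of 35116 promoters in the table. The full CRE (TGACGTCA) was found in 1 of 11 and in 1.65% of all, and the CRE core (TGACG) in 5 of 11, those of EGR1, EGR2, NR4A3, KLF4 and DUSP1, and in 21.2% of all. The GC box (GGGCGG), a site that KLF and Sp factors can bind, was found in 7 of 11 and in 42.6% of all. None of the 11 held the AP-1 site (TGACTCA, 4.20% of all promoters), the EGR site (GCGTGGGCG, 0.720%) or the NR4A half-site NBRE (AAAGGTCA, 1.05%). None held CCGGAAG, a strict form of the ETS site (8.52% of all promoters). The shorter ETS core GGAA was not searched for. A match is a run of letters and not a measured binding site.

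**Figure D1:**
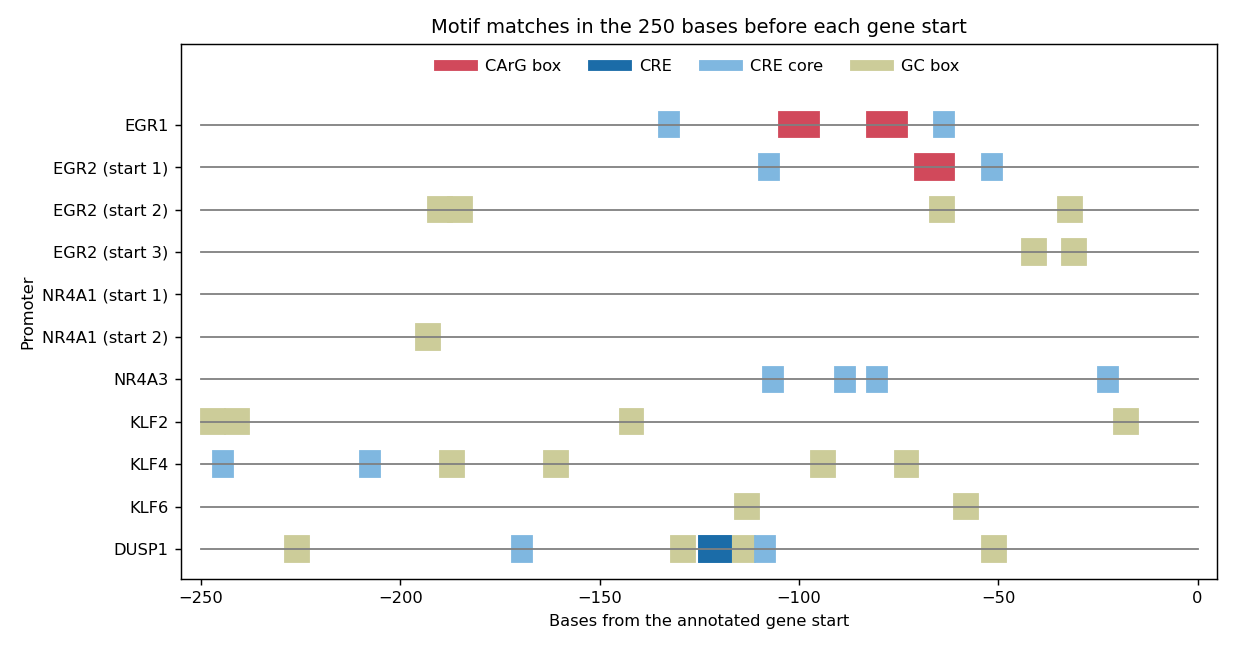
Positions of 4 motifs in the 250 bases before each of the 11 annotated starts of 8 genes; the x axis is distance in bases from the start, and each grey line is 1 promoter with matches as coloured blocks. CArG boxes lie on EGR1 and 1 start of EGR2, the full CRE on DUSP1, and CRE cores on 5 promoters.

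EGR1 (ENSG00000120738, chromosome 5: 138465490 to 138469315, plus strand) encodes a zinc finger factor that links growth signals to transcription. Its level was 72.3 FPKM at day 0, 112 at day 2, 4.27 at day 3, 1.51 at day 4, 0.977 at day 6 and 6.81 at day 30. It was thus high in the first 2 libraries, near the limit of the call rule at day 6 and only partly back at day 30. Among all genes its place from the top was 408 at day 0, 254 at day 2 and 15326 at day 6. At day 3 its level was 26.2-fold lower than at day 2 (interval 22.7 to 30.4), a log2 difference of -4.42, and only 1 of the 16149 genes in that comparison had a more negative one. It fell again by 1.07 at day 4 against day 3, when it was 2.82-fold lower (2.15 to 3.73). At day 30 it was 6.97-fold higher than at day 6 (5.17 to 9.55) and 10.6-fold lower than at day 0 (9.36 to 12.1). The day 4 and day 6 levels had overlapping intervals, but the interval of their ratio left out 1. EGR1 was 1.55-fold lower at day 6 than at day 4 (1.07 to 2.24), which was not called.

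EGR2 (ENSG00000122877, chromosome 10: 62811996 to 62919900, minus strand) is known for its roles in hindbrain patterning and Schwann cell myelination. Its level was 3.06 FPKM at day 0, 6.36 at day 2, 0.151 at day 3, 0.0858 at day 4, 0.0314 at day 6 and 5.31 at day 30. The 3 low libraries held 8, 5 and 2 reads of it, against 378 reads at day 2 and 242 at day 30, and the intervals of those last 2 levels overlapped. EGR2 was 42.1-fold lower at day 3 than at day 2 (21.1 to 98.2) and 169-fold higher at day 30 than at day 6. With 2 reads at day 6, the interval of that last ratio ran from 46.4 to 1406.

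EGR3 (ENSG00000179388, chromosome 8: 22687659 to 22693302, minus strand) is known from muscle spindle development and lymphocytes. Its level was 0.298 FPKM at day 0, 4.48 at day 2, 0.718 at day 3, 1.17 at day 4, 0.0477 at day 6 and 1.0 at day 30. The day 2 library stood above the other 5. Next in falling order were day 4, day 30 and day 3, each with an interval that overlapped the next. The ratio of day 4 to day 3 was 1.63 (1.14 to 2.36), which was not called. EGR3 was 15.0-fold higher at day 2 than at day 0 (9.69 to 24.6) and 6.24-fold lower at day 3 than at day 2 (4.63 to 8.56). It was 24.6-fold lower at day 6, with 4 reads, than at day 4, with 90 reads (9.29 to 92.3). At day 30 against day 6 its ratio was 21.0 (7.78 to 79.5), but its log2 difference of 0.93 was under the call threshold.

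The share of each gene in the family moved as well. EGR1 made up 95.6%, 91.2%, 83.1%, 54.6%, 92.5% and 51.9% of the summed EGR level over the 6 days in order. EGR3 made up 42.3% at day 4, and EGR2 40.5% at day 30. The family sum was 75.6 FPKM at day 0, 123 at day 2, 5.13 at day 3, 2.77 at day 4, 1.06 at day 6 and 13.1 at day 30, so the day 30 sum was mostly EGR1 and EGR2 together, below the sums of day 0 and day 2.

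NR4A1 (ENSG00000123358, chromosome 12: 52022832 to 52059507, plus strand) was measured at 4.66 FPKM at day 0, 15.6 at day 2, 4.59 at day 3, 6.90 at day 4, 3.03 at day 6 and 21.4 at day 30. It thus had high levels at day 2 and at day 30, with low levels before and between, and the day 0 and day 3 levels had overlapping intervals. It was 3.34-fold higher at day 2 than at day 0 (3.03 to 3.70), 3.40-fold lower at day 3 than at day 2 (3.07 to 3.77) and 7.08-fold higher at day 30 than at day 6 (6.34 to 7.92). At day 6 it was 2.28-fold lower than at day 4 (2.02 to 2.58), a log2 difference of -0.97 that was not called. The table gives NR4A1 a length of 7295 bases, the union of exons of 22 transcripts, against 3511 bases for its longest coding transcript, which lowers its FPKM relative to other genes but not its ratios between days.

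NR4A2 (ENSG00000153234, chromosome 2: 156324432 to 156342348, minus strand), known for its role in midbrain dopamine neurons, was measured at 0.347 FPKM at day 0, 0.611 at day 2, 0.580 at day 3, 0.558 at day 4, 0.598 at day 6 and 4.96 at day 30. Its first 5 libraries held 20 to 41 reads and neighbouring levels overlapped, while day 30 held 243 reads and was 8.29-fold above day 6 (5.94 to 11.8). NR4A3 (ENSG00000119508, chromosome 9: 99821855 to 99866891, plus strand) was measured at 0.142 FPKM at day 0, 0.226 at day 2, 0.177 at day 3, 0.0200 at day 4, 0.0458 at day 6 and 8.76 at day 30. Its day 4 and day 6 levels rest on 2 and 5 reads, against 683 reads at day 30, which was 191-fold above day 6 (81.5 to 591). Both genes were therefore below 1 FPKM in the 5 libraries up to day 6 and well above it at day 30. The 3 NR4A genes summed to 35.2 FPKM at day 30, of which NR4A1 made up 61.0% and NR4A3 24.9%, and to 3.67 FPKM at day 6, of which NR4A1 made up 82.5%.

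KLF2 (ENSG00000127528, chromosome 19: 16324817 to 16327874, plus strand) was measured at 0.614 FPKM at day 0, 0.800 at day 2, 0.622 at day 3, 0.627 at day 4, 4.62 at day 6 and 73.5 at day 30. The first 4 libraries held 18 to 26 reads with overlapping intervals. KLF2 was the only one of the 10 genes called higher at day 6 against day 4, by 7.36-fold (4.61 to 12.4), and it was 15.9-fold higher again at day 30 than at day 6 (13.5 to 18.8). Against day 0, its log2 difference at day 30 was 5.53, place 71 from the top of 17874 genes. Summed levels of 10 endothelial markers were 93.1 FPKM at day 0, 88.3 at day 4, 126 at day 6 and 101 at day 30. KDR alone was at 83.4 FPKM at day 0, 51.3 at day 4, 73.9 at day 6 and 63.6 at day 30, so these sums are mostly KDR. Of the 10 markers, 7 were at 1 FPKM or more at day 6 and 5 at day 30. At day 30 against day 6, 8 of them could be called. Of these, 0 were called higher and 3 lower, beside 21.0% and 15.3% of all genes. CDH5, the cadherin of endothelial junctions, was at 0.32 FPKM at day 30 and 3.76 FPKM at day 6, and PECAM1 was at 1.0 FPKM at day 30 and 0.83 FPKM at day 6. The part of endothelial cells in the KLF2 levels was not tested.

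KLF4 (ENSG00000136826, chromosome 9: 107484852 to 107490482, minus strand) was measured at 2.18 FPKM at day 0, 2.09 at day 2, 0.629 at day 3, 0.467 at day 4, 0.680 at day 6 and 19.4 at day 30. The levels fell into 3 tiers whose members had overlapping intervals: day 30 alone, day 0 with day 2, and day 3 with day 4 and day 6. KLF4 was 28.5-fold higher at day 30 than at day 6 (21.0 to 39.7) and 8.89-fold higher than at day 0, so this reprogramming factor was higher in the library in which pluripotency markers were lowest. At day 3 against day 2 it was 3.32-fold lower (2.25 to 5.04), with a log2 difference of -0.92 that was not called. KLF6 (ENSG00000067082, chromosome 10: 3775996 to 3785281, minus strand) was measured at 21.1 FPKM at day 0, 22.5 at day 2, 12.0 at day 3, 12.4 at day 4, 7.91 at day 6 and 84.1 at day 30. It was 10.6-fold higher at day 30 than at day 6 (9.89 to 11.4) and 3.98-fold higher than at day 0, and none of its 4 steps up to day 6 was called. KLF6 made up 88.3% to 91.9% of the summed level of the 3 KLF genes up to day 4, 59.9% at day 6 and 47.5% at day 30, while KLF2 made up 4.66% at day 4, 34.9% at day 6 and 41.5% at day 30. The sum was 13.5 FPKM at day 4, 13.2 at day 6 and 177 at day 30, so between day 4 and day 6 the mix shifted at nearly the same sum.

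**Figure D2:**
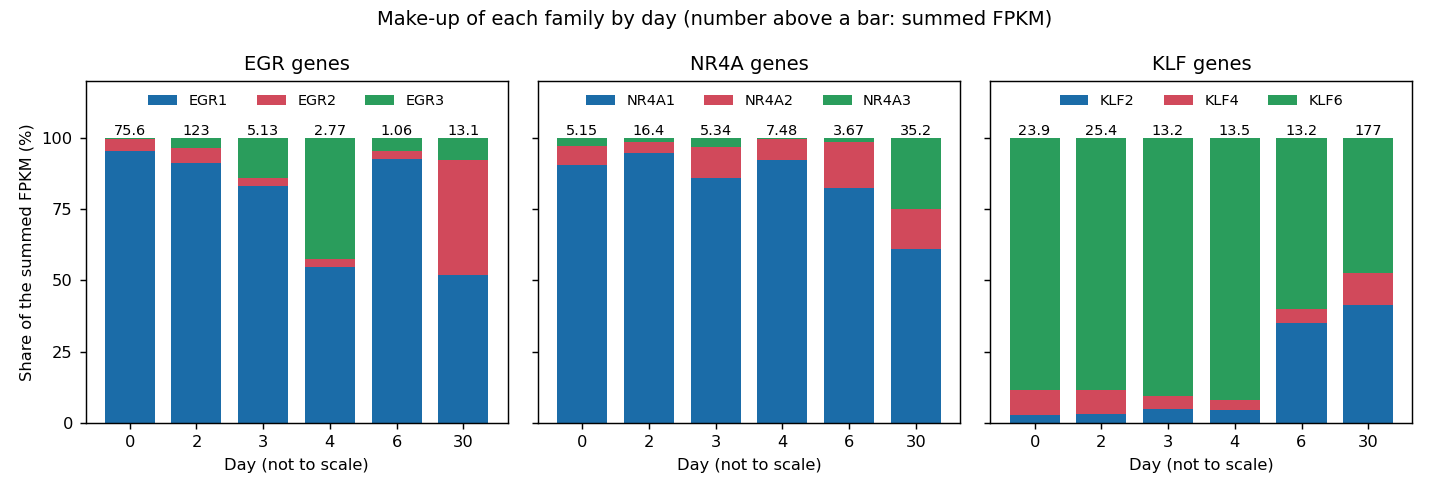
Share of the summed FPKM taken by each gene of the EGR, NR4A and KLF families (y axis, percent) in the library of each day (x axis), with the summed FPKM above each bar. EGR1 falls to 51.9% of the EGR sum at day 30, NR4A1 to 61.0% of the NR4A sum, and KLF2 reaches 41.5% of the KLF sum.

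DUSP1 (ENSG00000120129, chromosome 5: 172768090 to 172771195, minus strand) was measured at 10.6 FPKM at day 0, 18.2 at day 2, 11.6 at day 3, 5.70 at day 4, 4.04 at day 6 and 209 at day 30. None of its 4 steps up to day 6 was called, although at day 4 it was 2.03-fold lower than at day 3 (1.69 to 2.45, log2 difference -0.91). At day 30 it was 51.7-fold higher than at day 6 (43.7 to 61.5) and 19.7-fold higher than at day 0 (17.6 to 22.1). Its log2 difference of 5.38 against day 6 was at place 49 from the top of 18023 genes, and its level was at place 140 of all genes at day 30, against place 8853 at day 6. DUSP1 alone made up 48.1% of the summed level of the 10 genes at day 30, which was 434 FPKM, against 22.0 FPKM at day 6 and 115 FPKM at day 0.

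**Figure D3:**
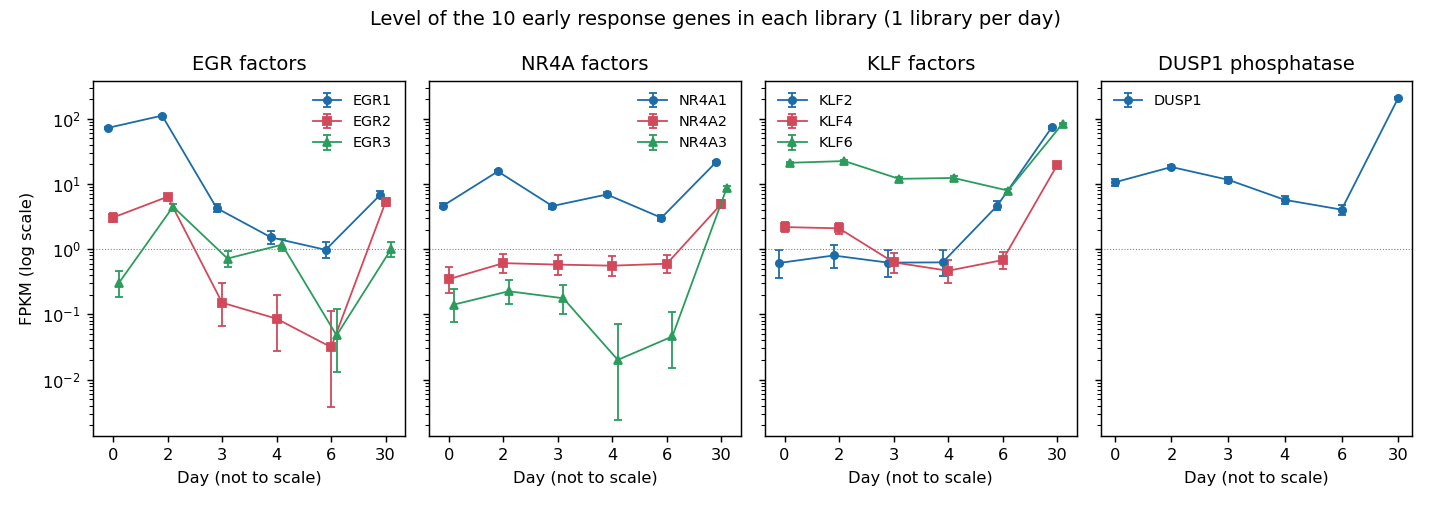
FPKM of each of the 10 genes (log scale) by day, in panels for EGR, NR4A, KLF and DUSP1; points are single libraries, bars are exact Poisson 95% intervals of the reads and the dotted line is 1 FPKM. The EGR genes are highest at day 2, and the other 7 genes are highest at day 30, where DUSP1 reaches 209 FPKM.

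EGR3, NR4A1 and DUSP1 each overlap a noncoding gene on the opposite strand. These neighbours were at most 0.543 FPKM in any library, and whether counting used strand is not given in the sources used here.

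At day 2 against day 0, a span in which mesendoderm markers summed to 1044 FPKM at day 2 and 2.3 FPKM at day 0, EGR3 and NR4A1 rose. That is 2 of the 10 genes called higher, against 8.78% of the 16019 genes tested, and 0 called lower, against 7.75%. EGR1 was 1.55-fold higher (1.48 to 1.62), EGR2 2.08-fold higher (1.73 to 2.51) and DUSP1 1.72-fold higher, and none of these 3 was called. NR4A2, NR4A3 and KLF2 were below 1 FPKM in both libraries and could not be called. The median log2 difference of the 10 genes was 0.44, against -0.03 for all genes tested.

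At day 3 against day 2, all 3 EGR genes and NR4A1 fell. These were 4 of the 10 genes called lower, against 4.98% of the 16149 genes tested, and 0 were called higher, against 7.13%. EGR2, with a log2 difference of -2.68, was the 20th lowest. The median of the 10 genes was -0.89, against -0.02 for all genes. KLF6 and DUSP1 had log2 differences of -0.85 and -0.61 and were not called, and NR4A2, NR4A3 and KLF2 were again below 1 FPKM in both libraries.

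At day 4 against day 3, EGR1 was the 1 gene of the 10 called lower, against 3.59% of 16376 genes, and 0 of the 10 were called higher, against 4.23%. DUSP1, at 5.70 FPKM at day 4 and 11.6 FPKM at day 3, was just under the threshold and is called with a pseudocount of 0.1. At day 6 against day 4, KLF2 rose and EGR3 fell, against 5.51% of 16727 genes called higher and 6.71% called lower. Only 5 of the 10 genes could be called at day 4 against day 3 and 6 at day 6 against day 4. The others were below 1 FPKM in both libraries. Counts of 0 or 1 in so few genes are too small to set apart from these backgrounds. The median of the 10 genes was -0.05 at day 4 against day 3 and -0.21 at day 6 against day 4, where the medians of all genes were -0.00 and -0.01. With TPM in place of FPKM, 56.2% of the genes called at day 6 against day 4 were higher, against 45.1% in FPKM. TPM values are larger than these FPKM values, so the same minimum and pseudocount also reach lower genes there.

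At day 30 against day 6, all of the genes but EGR3 were called higher. EGR3 was 21.0-fold higher as well, but its log2(FPKM + 1) difference missed the threshold, and it was called with a pseudocount of 0.1. The 9 of 10 stand beside 21.0% of the 18023 genes called higher, and 0 of 10 beside 15.3% called lower. The median log2 difference was 2.92 for the 10 genes and 0.08 for all genes. The split of all calls depended on the scaling, with 57.8% of called genes higher in the deposited FPKM, 37.4% when scaled to total reads and 43.3% in TPM. Scaling to total reads moved the median of all genes to -0.33 and TPM moved it to -0.22, so medians of this comparison are to be read against that of all genes. The same 9 genes were called higher under the total-read scaling.

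Against day 0, the day 30 library had 7 of the 10 genes called higher, the NR4A and KLF genes and DUSP1, against 25.9% of 17874 genes, and EGR1 alone called lower, against 19.1%. NR4A1 was 4.60-fold, NR4A2 14.3-fold and NR4A3 61.8-fold higher. EGR2 and EGR3 had log2 differences of 0.64 and 0.62 and were not called. The median of the 10 genes was 2.07, against 0.13 for all genes. This comparison shares the day 30 library with that against day 6 and is not a second measurement of it.

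**Figure D4:**
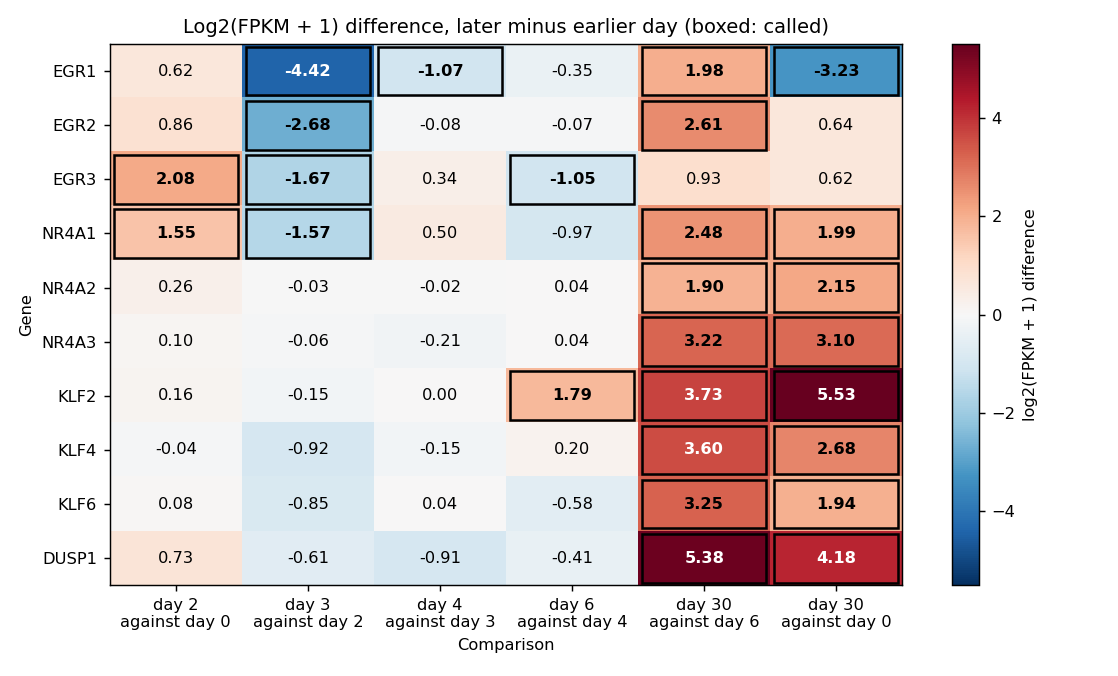
Log2(FPKM + 1) difference of each gene (rows) in each comparison (columns), later minus earlier day, with called differences boxed. The EGR genes and NR4A1 are called lower at day 3 against day 2, and all genes but EGR3 are called higher at day 30 against day 6.

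Over the 6 days, the highest library was day 2 for 3 of the 10 genes and day 30 for 7, against 12.6% and 31.9% of 20481 genes in the table. Day 6 was the lowest library for 6 of the 10, against 13.4% of all. The day 30 library differs from the others in more than these genes. Summed fibroblast and mural markers were 5692 FPKM at day 30 and 573 FPKM at day 6, with 8 of 9 called higher, beside 21.0% of all genes. Summed hepatic and endoderm markers were 658 FPKM at day 30 and 383 FPKM at day 6. Of these 8 markers, 4 were called higher and 3 lower, beside 21.0% and 15.3% of all genes. Blood markers summed to 10.4 FPKM at day 30, where CD14 and LYZ were the only 2 of 9 at 1 FPKM or more and CD68, HBB and HBG1 were at 0. The part of these cell types in the day 30 levels was not tested.

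Heat shock genes, which respond to stress and to handling, were read beside the early response genes. At day 30 against day 6, 5 of 10 were called higher, beside 21.0% of all genes, and 0 lower, beside 15.3%. Their median was 1.10, and the chaperone gene HSPA1B was at 170 FPKM at day 30 and 8.49 FPKM at day 6. HSPA1B shares reads with its near-identical copy HSPA1A, so its own level is uncertain. At day 3 against day 2 the heat shock median was -0.87, with 0 called higher and 1 lower, beside 7.13% and 4.98% of all genes. Against day 0, the day 30 library had 5 heat shock genes called higher, beside 25.9% of all genes, and 4 lower, beside 19.1%. The part of harvest and handling in these levels was not tested.

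Among 25 other early response genes, 7 were called higher and 3 lower at day 2 against day 0, beside 8.78% and 7.75% of all genes, with a median of 0.30. The stress-responsive gene IER5 was at 14.5 FPKM at day 2 and 3.06 FPKM at day 0. At day 3 against day 2, 1 was higher and 8 were lower, beside 7.13% and 4.98% of all genes, with a median of -0.53. The AP-1 subunit FOS was at 2.24 FPKM at day 3 and 42.9 FPKM at day 2, while the kinase gene PLK2 was at 21.1 FPKM at day 3 and 7.52 FPKM at day 2. At day 4 against day 3, 0 were higher and 2 lower (median -0.08), near the 4.23% and 3.59% of all genes. At day 6 against day 4, 1 was higher and 8 lower (median -0.37), beside 5.51% and 6.71% of all genes. By day 30, 21 of 25 were higher than at day 6 and 0 lower, beside 21.0% and 15.3% of all genes, with a median of 2.21. The AP-1 subunit JUNB was at 157 FPKM at day 30 and 3.08 FPKM at day 6, a ratio of 51.1 (41.7 to 63.2), while IER5 was at 11.9 FPKM at day 30 and 15.6 FPKM at day 6. Day 30 was the highest library for 17 of the 25, beside 31.9% of all genes, and day 6 the lowest for 15, beside 13.4%. Day 2 was the highest for 3, near the 12.6% of all genes.

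**Figure D5:**
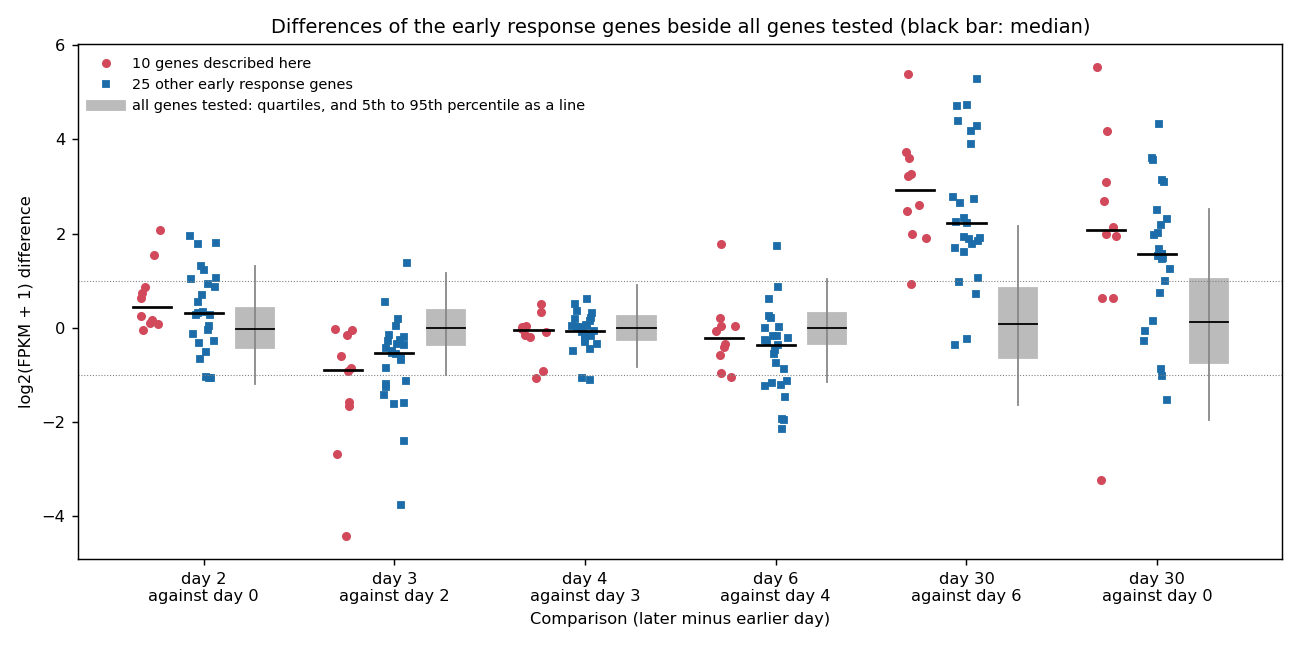
Log2(FPKM + 1) differences, later minus earlier day, of the 10 genes described here (red circles) and of 25 other early response genes (blue squares) in each comparison, beside the quartiles and the 5th to 95th percentile of all genes tested; black bars are medians. Both sets have medians below 0 at day 3 against day 2 and above 2 at day 30 against day 6.

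Transcripts of the upstream factors were read the same way. Of SRF and 6 partner genes, 0 were called in either direction in any of the 4 steps up to day 6. Below the threshold, SRF was 1.65-fold higher at day 2 than at day 0 (1.54 to 1.77). At day 3 its ratio to day 2 was 0.533 (0.496 to 0.572). ELK3 moved the same way, with ratios of 1.83 and 0.533, and ELK4 the other way, with ratios of 0.507 and 1.79. In the last step, day 30 against day 6, 4 of these 7 were called higher, beside 21.0% of all genes, and 0 lower, beside 15.3%, with a median of 1.03. FHL2, an SRF cofactor of muscle, was at 26.9 FPKM at day 30 and 0.890 FPKM at day 6, while SRF itself was at 14.3 FPKM at day 30 and 18.3 FPKM at day 6. Of 11 kinase genes of the ERK cascades, 0 were called up to day 6 and 2 were called higher at day 30 against day 6 (median 0.63), near the 21.0% of all genes. The ERK5 gene MAPK7 was at 14.7 FPKM at day 30 and 6.32 FPKM at day 6. Of 8 genes of CREB and its partners, 0 were called up to day 6 and 2 were called higher at day 30 against day 6 (median 0.21), also near that share. The CREB coactivator gene CRTC2 was at 38.1 FPKM at day 30 and 10.4 FPKM at day 6. In the steps up to day 6, 3.59% to 8.78% of all genes were called in each direction. Counts of 0 in lists of 7, 11 and 8 genes are too small to set apart from these shares. Transcript levels of these kinases and factors do not measure their activity.

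NAB1 and NAB2 encode co-repressors that bind EGR proteins, and NAB2 is itself an EGR target gene. NAB2 was at 18.4 FPKM at day 2 and 5.81 FPKM at day 0, a ratio of 3.17 (2.75 to 3.65). It was at 35.0 FPKM at day 30 and 12.8 FPKM at day 6, and both differences were called. At day 3, when EGR1 was 26.2-fold lower than at day 2, NAB2 did not fall. It was at 19.4 FPKM, a ratio of 1.06 to day 2 (0.960 to 1.16) that was not called, and at 14.5 FPKM at day 4. NAB1 was called higher at day 6, with 15.6 FPKM against 5.93 FPKM at day 4. EGR4, the remaining EGR gene, reached at most 0.993 FPKM, at day 2. RXR receptors form heterodimers with NR4A1 and NR4A2. RXRG was called higher at day 2, with 8.48 FPKM against 0.0766 FPKM at day 0, and lower at day 6, with 0.515 FPKM against 2.91 FPKM at day 4. RXRB was called higher at day 30, with 25.3 FPKM against 9.72 FPKM at day 6.

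Of 10 other DUSP genes, 6 were called higher and 1 lower at day 30 against day 6, beside 21.0% and 15.3% of all genes, with a median of 1.58. DUSP8 was at 21.7 FPKM at day 30 and 0.764 FPKM at day 6, after 11.7 FPKM at day 4. DUSP6, a phosphatase that acts on ERK, was the one called lower, at 4.95 FPKM at day 30 and 32.3 FPKM at day 6. Of 14 other KLF genes, 6 were called higher and 2 lower in the same comparison, with a median of 0.62, and the 2 lower are near the share of all genes. KLF9, a target of glucocorticoid and thyroid hormone receptors, was at 28.3 FPKM at day 30 and 0.324 FPKM at day 6, a ratio of 87.3 (60.6 to 131). KLF1, the erythroid family member, was at 0.0502 FPKM at day 30 and 3.81 FPKM at day 6.

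Likeness of patterns was measured as the root mean square difference between centred log2(FPKM + 1) profiles over the 6 libraries, where 0 is an identical shape, among protein-coding genes that vary. Closest to EGR1 were B3GNT7 (0.98), the pluripotency factor gene NANOG (1.02), SFRP2 (1.06), NEFL (1.07) and VGF (1.11). Even these were about 1 log2 unit away, and EGR2 stood at place 50 and EGR3 at place 1011 of 6550. With a pseudocount of 0.1, NANOG and NEFL were no longer among the 5 closest, and DCLK1 and FOSB were. EGR2 then stood at place 14. Closest to NR4A1 were PPP1R14C (0.25), SLC2A6 (0.27), PMEPA1 (0.28), SLC25A25 (0.36) and NFKBIB (0.36). KLF2 was closest to the water channel gene AQP1 (0.18), then NR2F2 (0.26), DDR2 (0.34), HSPB7 (0.35) and RBP4 (0.36). KLF4 was closest to RHCG (0.17), EGFL6 (0.19), FHL2 (0.20), PRR15 (0.25) and EPS8 (0.25), with KLF6 at place 40 and NR4A3 at place 46. DUSP1 was closest to IL34 (0.30), JUNB (0.33), SPINK1 (0.37), OSMR (0.40) and KRT20 (0.46), with KLF4 at place 31. Among the 10 genes, KLF4 and KLF6 were the closest pair (0.38) and EGR1 and KLF2 the farthest apart (3.38). With a pseudocount of 0.1 the closest pair was instead NR4A3 and DUSP1 (0.44), with KLF4 and KLF6 at 0.73. EGR1 and KLF2 were still the farthest apart (3.95). With 6 libraries and 1 high day, many genes share such a shape.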

How the data were processed

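RNA was sequenced from 6 libraries of H9 cardiac organoid differentiation, 1 per day. The authors deposited 1 table of FPKM values for 58735 genes, and the submitters' processing notes name CASAVA, HISAT2 and featureCounts 1.5.0-p3. Neither the build nor the strand setting is given in the sources used here. All 58735 positions equal GENCODE 29 on GRCh38. Every sample column was used.

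Whole reads were recovered, since FPKM multiplied by gene length stepped evenly in each library, within 0.001 read. The denominators behind the deposited FPKM were 0.826 (day 30) to 1.12 (day 6) times the read totals. Differences were taken on log2(FPKM + 1), which understates the change of low genes. Levels have exact Poisson and ratios exact conditional binomial 95% intervals, which cover counting error only, and reads are not molecules counted by identifiers. Work was done in Python 3.11.15 with scipy 1.17.1, and tested on simulated reads.

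The 10 genes and all lists were chosen with earlier results of these data known, so counts over them are descriptions. Named genes are the 10, the list members with the highest or lowest difference in a comparison (at most 4 a list), all genes of lists of 3 and the 5 genes closest to EGR1, NR4A1, KLF2, KLF4 and DUSP1 with a highest FPKM of at least 5 and a log2 range of at least 1. Single marker genes were picked for naming after their values were seen. Tried as well were 3 other scalings, a minimum FPKM of 5 or none, a pseudocount of 0.1 and a rule of a 2-fold ratio whose interval leaves out 1.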

Additional observations from a re-analysis of the deposited data

How the results depend on the processing

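Members called lower at day 4 against day 3 numbered 2 in place of 1 with a pseudocount of 0.1, with TPM and with the 2-fold ratio rule, which add DUSP1, and 0 with a minimum FPKM of 5. Those called lower at day 6 against day 4 numbered 2 with a pseudocount of 0.1 and with the ratio rule, which add NR4A1, and 0 with the minimum of 5. With that minimum, 1 gene, NR4A1, was called higher at day 2 against day 0 and 0 at day 6 against day 4. A pseudocount of 0.1, TPM and the ratio rule each also called EGR3 higher at day 30 against day 6 and against day 0, EGR2 higher at day 2 against day 0 and KLF4 lower at day 3 against day 2. The minimum of 5 also lost EGR3 at day 3 against day 2 and NR4A2 in both day 30 comparisons. No called difference of the 10 genes changed sign. Of their 60 log2 differences, 24 moved beyond the counting interval with a pseudocount of 0.1, 17 with TPM, 9 with total reads and 0 with median-of-ratios scaling. Of the 5 genes closest in pattern, a pseudocount of 0.1 kept 3 for EGR1, 4 for NR4A1, 1 for KLF2, 2 for KLF4 and 2 for DUSP1. In order of the 6 comparisons, genes called over the whole table numbered 2648, 1956, 1281, 2045, 6537 and 8041, against 4222, 3439, 2361, 3380, 8813 and 10188 with a pseudocount of 0.1, 1319, 939, 442, 914, 3678 and 4845 with a minimum of 5, and 6406, 6102, 4609, 6152, 12721 and 13676 with TPM. Deposited FPKM summed to 225457 to 291883 per library, so TPM also lowers the minimum and the pseudocount in FPKM terms, and the genes tested at day 2 against day 0 numbered 22662 in place of 16019. Its counts therefore do not show the scaling alone. Reads under about 10, as for EGR2 from day 3 to day 6, limit ratios to their order of magnitude. No paired analysis was possible because each day had 1 library, and for the same reason no library could be left out of a group.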
